A study of Mus musculus with 12 samples.

Results

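The effect of a Western diet on the heart outside pregnancy was described from 6 of the 12 heart RNA libraries of the series, 3 from Western diet and 3 from control diet mice, all of them nonpregnant. All were wild-type C57BL/6J females. The Western diet (D12451) held 45% of its energy as fat and 17% as sucrose, and the control diet (D12450K, called a normal chow in the labels) held 10% as fat. The mice ate the diet for 15 weeks, then stayed on it without breeding for as long as their bred counterparts, and were killed at 27 to 29 weeks of age. The other 6 libraries came from hearts taken 1 day after delivery, again 3 from Western diet and 3 from control diet mice of the same ages. RNA was extracted from trimmed, frozen heart tissue, and the labels do not say which chambers it held or whether the libraries of a group came from separate mice. All p-values therefore measure only the spread between these libraries, which may be technical. The question was which heart genes differ with a Western diet when no pregnancy is involved.

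The adult heart draws most of its energy from fatty acids. When fat is plentiful, fatty acids bind the nuclear receptor PPARα, which turns on genes for lipid uptake, and mitochondrial and peroxisomal oxidation, and which also induces Pdk4, a kinase that shuts pyruvate dehydrogenase and so spares glucose. Retinoids, made from vitamin A by alcohol and aldehyde dehydrogenases, act through partner receptors of the same family.

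The 3 Western diet libraries held 22978995, 26238038 and 28398335 counts, and the 3 control libraries 27118406, 24295320 and 22754591. A floor of 3 counts lay between 0.106 and 0.132 CPM (the count scaled to a common library total), for counting error only. Of 49315 genes in the files, 15476 passed a low-count filter and were tested. The chi-square per degree of freedom between libraries, which is about 1 for sampling noise alone, was 5.42 to 9.83 between Western diet libraries. Control replicate 1 stood apart from the other controls, with 16.7 and 16.4 between it and the other 2, against 4.03 between those 2. By root mean squared log2 difference it was nearer to Western diet replicate 1 (0.344) than to the other controls (0.387 and 0.425). Western diet replicate 1 was 0.358 and 0.37 from its own group, though by chi-square this cross-diet pair (12.3) was further apart. The axis of largest spread between libraries (33.3% of variance) put control replicate 1 at -16.4, among the Western diet libraries (-22.2 to -0.833). The other controls lay at 19.0 and 26.3. On the next axis (21.8%) the diets did not overlap. The tissue carried its defining ventricular markers, all 12 of which were tested. Of 12 atrial markers 8 were tested, whereas Myl7, Sln, Bmp10 and Dkkl1 did not pass the filter. In bulk tissue, fewer cells of a type and less RNA per cell cannot be told apart.

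Few genes passed the test in nonpregnant hearts. In edgeR's quasi-likelihood test with Benjamini-Hochberg adjustment at 0.05, 9 of 15476 genes differed between the diets (0.0582%), of which 7 were higher on the Western diet (0.0452%) and 2 lower (0.0129%). At an unadjusted p under 0.05 there were 1483 genes (9.58%), 717 higher (4.63%) and 766 lower (4.95%). All 12 libraries shared 1 estimate of each gene's spread; when the 6 nonpregnant libraries were fitted alone, edgeR called 0 genes, with 1412 at an unadjusted p under 0.05, and the 9 genes had adjusted p between 0.0534 and 0.104. DESeq2 called 95 genes, the 9 among them. The 8 of them that are reported here are described first, by role.

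Pex11a, a peroxisomal membrane protein that drives division of peroxisomes and a PPARα target (chr7:79735957-79743131), had 22.8, 24.1 and 26.0 CPM on the Western diet, against 17.1, 17.7 and 18.2 CPM on the control diet. The groups did not overlap, and the spread within each was small. It rose 1.37-fold (log2 0.46 ± 0.07 SE, adjusted p = 0.0424).

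A pair of enzymes of retinol and aldehyde oxidation also rose. Adh1, the class I alcohol dehydrogenase that oxidises ethanol and retinol (chr3:138260991-138290698), was at 17.5, 20.6 and 19.7 CPM on the Western diet, against 10.0, 11.4 and 11.5 CPM on the control diet (1.76-fold, log2 0.82 ± 0.11 SE, adjusted p = 0.0363). Aldh1a1, the retinaldehyde dehydrogenase that makes retinoic acid (chr19:20601961-20643462), was at 17.7, 16.9 and 18.8 CPM on the Western diet, against 12.2, 10.9 and 11.7 CPM on the control diet. Its fold was 1.53 (log2 0.61 ± 0.09 SE, adjusted p = 0.0424). All Western diet libraries were above all control libraries for each enzyme.

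Among genes of membrane and adhesion proteins, Scn4b rose most. It encodes the β4 subunit of voltage-gated sodium channels, which modifies their gating (chr9:45138395-45154152), and stood at 79.1, 82.5 and 107 CPM on the Western diet, against 45.7, 48.7 and 53.6 CPM on the control diet. The difference was 1.82-fold (log2 0.86 ± 0.12 SE, adjusted p = 0.0363), the smallest p of all genes, and Western diet replicate 3 was the highest library. Lims2, an adaptor that links integrin-linked kinase to focal adhesions (chr18:31931507-31958619), had 73.0, 73.5 and 72.6 CPM on the Western diet, against 58.8, 53.3 and 52.9 CPM on the control diet (log2 0.41 ± 0.06 SE, adjusted p = 0.0363). Ramp2, the accessory protein that turns the calcitonin receptor-like receptor of vessels into an adrenomedullin receptor (chr11:101246028-101259546), had 37.1, 39.8 and 36.6 CPM on the Western diet, against 30.2, 28.3 and 26.6 CPM on the control diet (log2 0.41 ± 0.07 SE, adjusted p = 0.0499). In the files' gene models Ramp2 shares 1103 of its 3301 exon bases with Vps25 on the same strand, and how shared reads were counted is not stated in the labels, so its value is uncertain. Smaller stretches of Lims2 (188 of 1688 bases, with Gpr17) and Adh1 (136 of 2233 bases, with Gm16559) overlap a gene on the opposite strand, and the strand setting is not stated either.

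The 2 genes that fell were Abat and Ndrg4. Abat, the mitochondrial transaminase that breaks down the transmitter GABA (chr16:8513429-8621568), had 10.8, 6.55 and 9.86 CPM on the Western diet, against 24.0, 23.2 and 23.2 CPM on the control diet, 0.386 times the control level (log2 -1.37 ± 0.22 SE, adjusted p = 0.0499). The 3 controls were nearly equal, and all 3 Western diet libraries were less than the lowest of them. Ndrg4, a cytoplasmic protein of the NDRG family that heart and brain express strongly (chr8:95676980-95715119), had 202, 226 and 203 CPM on the Western diet, against 269, 332 and 326 CPM on the control diet (0.680 times, log2 -0.56 ± 0.09 SE, adjusted p = 0.0499).

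**Figure D1:**
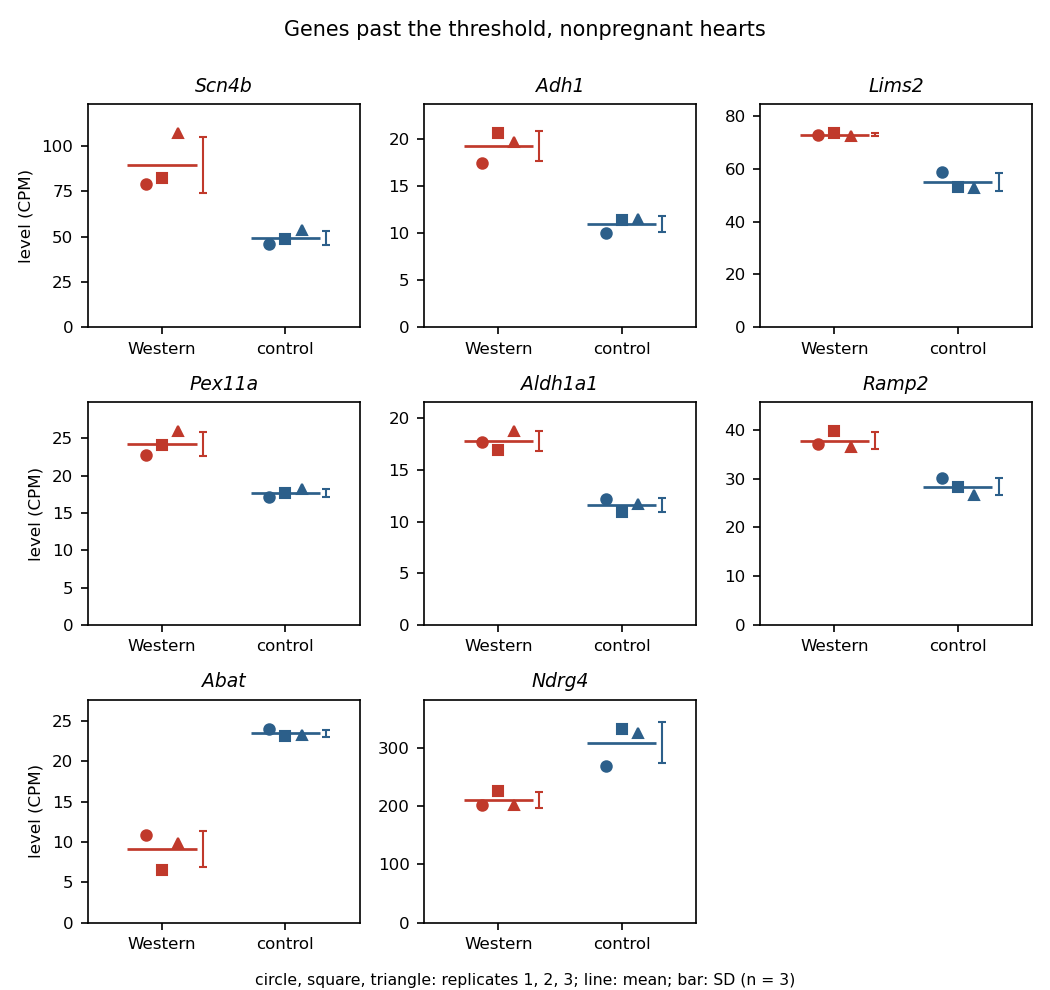
Level of 8 of the genes that passed the test, in CPM (vertical axis from 0), in the 3 Western diet and the 3 control diet libraries of nonpregnant hearts. Symbols are replicates 1 to 3, lines are means and bars are SD (n = 3); the groups overlap for none of the 8 genes.

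For all 9 genes the groups did not overlap, which was also so for 14.8% of the genes tested. Without Western diet replicate 1, 4 genes passed over the whole table, among them Scn4b, Adh1 and Pex11a. Without control replicate 1, 3 passed, among them Lims2 and Ndrg4, and without both libraries edgeR called 0 genes, with 1588 at an unadjusted p under 0.05.

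Promoters of 5 of the 9 genes were read from a RefSeq table (GRCm38.p6; 250 bases before to 50 after each start site) and searched on both strands for the E-box CACGTG, the D-box TTATGNAA and a direct repeat of the nuclear receptor site AGGTCA with any single base between the copies, which is the kind that PPARs bind. Of their 9 start sites, 2 held a match, both an E-box (Adh1 and 1 start site of Ndrg4), against 7.15% of all 32851 promoters for the E-box, 3.38% for the D-box and 0.04% for the exact repeat. The promoters of Adh1, which holds an E-box (in capitals) beginning 5 bases after the start site, and of Pex11a, the PPARα target among the genes searched, which holds no match, are shown so that the windows can be read beside the values. The files' gene model of Adh1 begins upstream of this start site. A match is a description of the letters in this window.
Adh1 (chr3:138277335-138277634, + strand): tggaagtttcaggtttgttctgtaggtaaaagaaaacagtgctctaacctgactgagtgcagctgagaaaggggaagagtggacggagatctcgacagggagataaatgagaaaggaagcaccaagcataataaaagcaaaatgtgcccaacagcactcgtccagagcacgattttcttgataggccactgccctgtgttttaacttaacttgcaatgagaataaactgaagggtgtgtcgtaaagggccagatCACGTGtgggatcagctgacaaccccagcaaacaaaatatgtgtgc
Pex11a (chr7:79743082-79743381, - strand): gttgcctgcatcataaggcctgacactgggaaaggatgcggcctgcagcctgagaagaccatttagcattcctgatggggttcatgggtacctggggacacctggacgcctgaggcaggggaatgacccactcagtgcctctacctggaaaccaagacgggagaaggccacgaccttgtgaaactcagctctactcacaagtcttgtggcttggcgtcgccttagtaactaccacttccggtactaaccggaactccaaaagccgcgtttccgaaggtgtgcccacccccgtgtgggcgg

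The genes next in order of p did not pass. On the higher side they were Gpm6b, a neural proteolipid (log2 0.50, adjusted p = 0.0815), Mthfd2, a mitochondrial folate enzyme (log2 1.16, adjusted p = 0.0847), and Ccdc85a (log2 0.55, adjusted p = 0.125). On the lower side were Lrrc4b, a synaptic adhesion protein (log2 -0.82, adjusted p = 0.0847), Lgi3 (log2 -0.99, adjusted p = 0.0847), the actin-binding Shroom3 (log2 -0.44), Sgcd, the δ-sarcoglycan of the dystrophin complex (log2 -0.43), the endocytic Ehd4 (log2 -0.43), Cacna1h, a T-type calcium channel (log2 -0.60), Klhl13 (log2 -0.52) and the ubiquitin ligase Herc3 (log2 -0.38), with adjusted p from 0.0866 to 0.142 for the last 6. In all 11 of these genes the groups did not overlap, as in 14.8% of all genes tested. Choosing genes by small p favours this, so it adds no support.

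Genes of fat use stood on the higher side as a group, with few single genes past the test. Of 19 PPAR target and fasting-response genes tested, 2 rose, Pex11a among them, all 19 had a positive log2 fold change (49.9% of all genes did), and 10 had an unadjusted p under 0.05 in the higher direction (4.63% of all genes). Some genes stand in more than 1 list. The median log2 fold change of the PPAR list was 0.35, against -0.000569 for all genes tested, and in 13 of the 19 every Western diet library was above every control (6.92% of all genes). Pdk4 was at 376, 530 and 587 CPM on the Western diet, against 285, 162 and 202 CPM on the control diet (log2 1.20 ± 0.41 SE, adjusted p = 0.372). Angptl4, a secreted inhibitor of lipoprotein lipase, was at 7.86, 10.5 and 21.0 CPM on the Western diet, against 6.79, 2.56 and 2.45 CPM on the control diet (log2 1.71 ± 0.54 SE, adjusted p = 0.326). In both genes control replicate 1 was the highest control and Western diet replicate 1 the lowest Western diet library. Acot1, a cytosolic acyl-CoA thioesterase, was at 24.3, 34.1 and 26.7 CPM on the Western diet, against 10.2, 14.8 and 16.6 CPM on the control diet (log2 1.04 ± 0.25 SE, adjusted p = 0.204); its near-identical neighbour Acot2 had a log2 fold change of 0.54, and reads may be split between them. The uncoupling protein gene Ucp3 had a log2 fold change of 0.64 (adjusted p = 0.635). Cpt1a, the liver form of the carnitine palmitoyltransferase that admits fatty acids to mitochondria, and the very low density lipoprotein receptor Vldlr lay near no difference (log2 0.08 and 0.03). Ppara itself had a log2 fold change of -0.17 (adjusted p = 0.699). The 3 Western diet libraries averaged 0.132, 0.317 and 0.362 over the list, and the 3 controls -0.323, -0.286 and -0.203, in log2(CPM + 0.5) centred on each gene's mean over all 6 libraries, so the groups were apart. Without both replicates 1 the median was 0.29, 10 of 19 had an unadjusted p under 0.05 (10.1% of all genes in that fit), and 0 passed in edgeR.

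Mitochondrial β-oxidation genes differed by less. None of the 20 tested passed, 18 were positive, 7 had an unadjusted p under 0.05, all higher (4.63% of all genes), and the median log2 fold change was 0.16. Decr1, which handles double bonds of unsaturated fatty acids, was at 475, 466 and 454 CPM on the Western diet, against 327, 354 and 385 CPM on the control diet (log2 0.39 ± 0.08 SE, adjusted p = 0.137). The trifunctional protein subunits Hadha and Hadhb had log2 fold changes of 0.23 and 0.24, and the muscle transporter enzyme Cpt1b 0.06. Without both replicates 1 the median was 0.11, with 2 of 20 at an unadjusted p under 0.05, a share near that of all genes in the same fit (10.1%), and without control replicate 3 the median was 0.24. Control replicate 1 had the lowest list average of the 6 libraries.

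Of 13 genes of fatty acid uptake and the lipoprotein lipase axis, 0 passed, and 6 were higher and 1 lower at an unadjusted p under 0.05 (4.63% and 4.95% of all genes). Their median was 0.21, and 0.14 without control replicate 3. The fatty acid-binding protein of heart muscle, Fabp3, was at 2886, 3109 and 3090 CPM on the Western diet, against 2007, 2616 and 2779 CPM on the control diet (log2 0.30, adjusted p = 0.372). Gpihbp1, which carries lipoprotein lipase across capillary endothelium, had a log2 fold change of 0.34, and the fatty acid translocase Cd36 0.22. Among 19 lipid droplet and triglyceride genes, 3 were higher and 1 lower at an unadjusted p under 0.05, against the same 4.63% and 4.95% of all genes. Their median was 0.07, and between 0.02 and 0.14 with single libraries left out. The monoacylglycerol lipase Mgll was at 0.28, hormone-sensitive lipase Lipe at 0.38 and the droplet coat protein Plin5 at 0.40. Of 17 peroxisomal genes Pex11a rose, and 14 were positive (median 0.10, and 0.04 without control replicate 1). The peroxisomal and mitochondrial isomerase Ech1 came next (log2 0.36, adjusted p = 0.246), and catalase, Cat, had a log2 fold change of 0.13. Of 10 white adipocyte markers tested (of 14), 8 were positive (median 0.32, but 0.12 without Western diet replicate 3, whose list average was 0.304, against -0.038 and -0.006 in the other Western diet libraries), and they summed to between 664 and 813 CPM on the Western diet, against 547 to 674 CPM on the control diet. Their part in the fat-use differences was not tested. The defining markers Adipoq and Plin1 were near the floor in all 6 libraries, so other members carried the sum. Among those, Fabp4 is also in the endothelial list. Adipoq, the adipocyte hormone adiponectin, was at 0.386, 0.379 and 0.282 CPM on the Western diet, against 0.286, 0.126 and 0.454 CPM on the control diet. Plin1, the coat protein of adipocyte fat droplets, was at 0.172, 0.189 and 0.458 CPM on the Western diet, against 0.214, 0.252 and 0.182 CPM on the control diet.

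Glucose-use genes leaned the other way by small amounts. Of 22 genes of glucose transport and glycolysis 0 passed, 18 were negative, and 4 had an unadjusted p under 0.05, all lower (4.95% of all genes), with a median of -0.05, which was -0.11 without control replicate 1 and -0.02 without control replicate 2. Slc2a4, the insulin-responsive glucose transporter GLUT4, was at 405, 419 and 403 CPM on the Western diet, against 445, 514 and 498 CPM on the control diet (log2 -0.25 ± 0.08 SE, adjusted p = 0.358). The basal transporter gene Slc2a1 had a log2 fold change of -0.31, and the hexokinases Hk2 and Hk1 of -0.16 and -0.27. Of 13 pyruvate dehydrogenase genes 10 were negative. Pdpr, a regulator of the phosphatase that reactivates the enzyme, had a log2 fold change of -0.29, and the phosphatase gene Pdp1 -0.31. Of 19 insulin-signalling genes 0 passed (median -0.07, and 0.00 without control replicate 3). Irs2, an insulin receptor substrate, was at 16.6, 11.1 and 10.6 CPM on the Western diet, against 32.0, 13.3 and 13.2 CPM on the control diet (log2 -0.63, adjusted p = 0.509) and control replicate 1 stood far above the other 5 libraries. Irs1 had a log2 fold change of -0.26 and the kinase gene Akt1 -0.25. Oxct1 and Bdh1, which serve ketone oxidation, had log2 fold changes of -0.14 and -0.34. Of 29 sterol and fatty acid synthesis genes 0 passed (median -0.04); the desaturase gene Scd4 had a log2 fold change of 0.87 (adjusted p = 0.389).

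**Figure D2:**
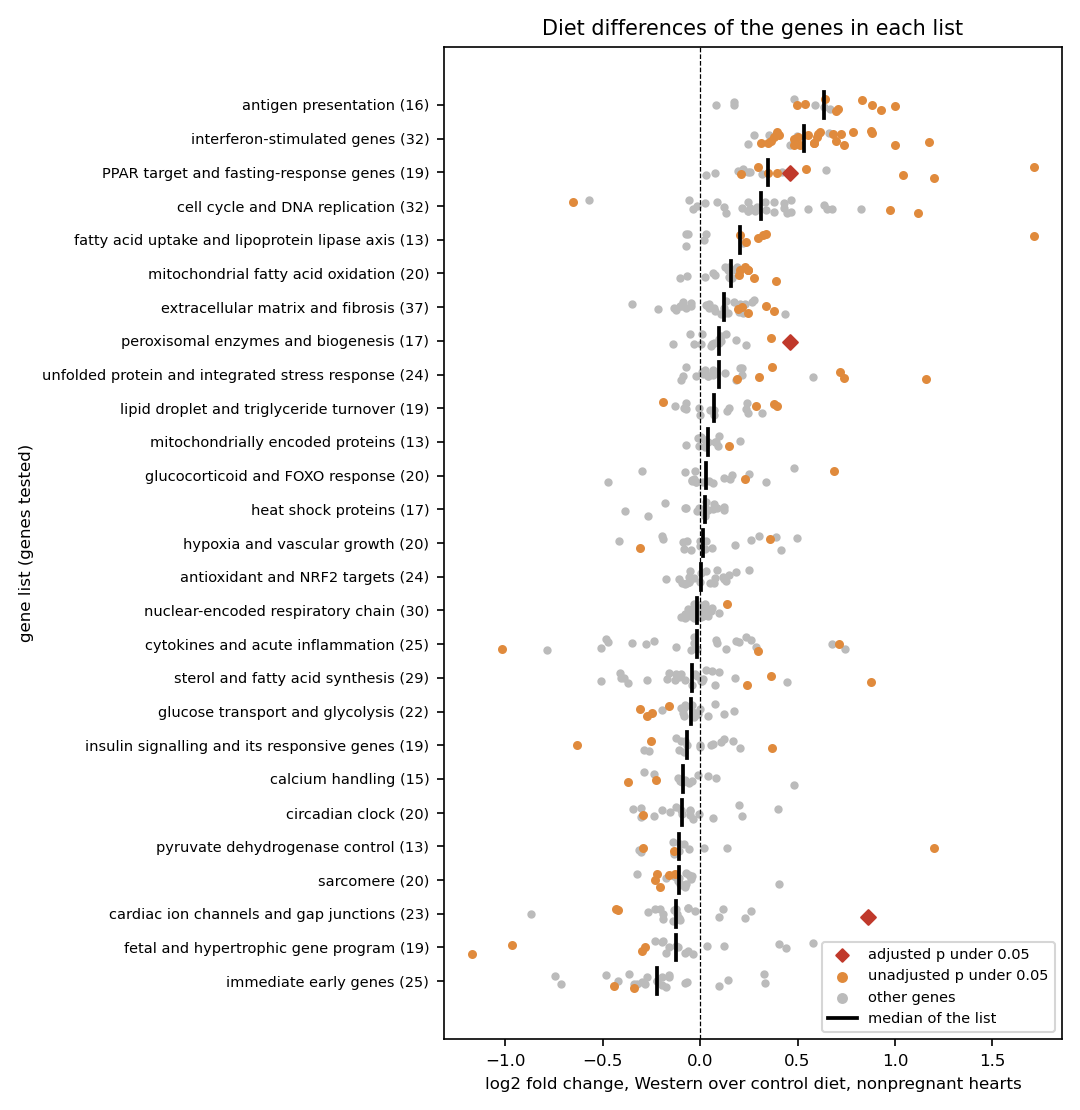
Log2 fold change, Western over control diet, of the genes reported here in each of 27 function lists (rows, with the number of genes tested) in nonpregnant hearts; the black bar is the list's median. The rows with the highest medians are antigen presentation (0.64), interferon-stimulated genes (0.53) and PPAR targets (0.35), and the genes past the adjusted threshold lie in the PPAR, peroxisome and ion channel rows.

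Respiratory chain genes had medians near 0. The 30 nuclear-encoded subunits had a median log2 fold change of -0.02, with 1 at an unadjusted p under 0.05, and the 13 mitochondrially encoded proteins a median of 0.04. The mitochondrially encoded proteins took 20.8 ± 0.414% of counts on the Western diet and 19.9 ± 0.250% on the control diet (SD, n = 3 each), a difference of 0.899 percentage points. The exact two-sided permutation test gave p = 0.1, the smallest p that 3 against 3 libraries allow.

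Contractile genes leaned to the lower side by small amounts. Of 20 sarcomere genes 0 passed, 19 were negative and 5 had an unadjusted p under 0.05, all lower (4.95% of all genes). Their median was -0.11, and in 7 every Western diet library was under every control (7.84% of all genes). Myh6, the adult cardiac myosin heavy chain, was at 29119, 31476 and 31085 CPM on the Western diet, against 33729, 36477 and 36711 CPM on the control diet (log2 -0.22 ± 0.07 SE, adjusted p = 0.308). The groups did not overlap for Myh6, for titin (Ttn, log2 -0.20) or for myosin-binding protein C (Mybpc3, log2 -0.23). Of 15 calcium-handling genes 12 were negative: the ryanodine receptor Ryr2 had a log2 fold change of -0.37 (adjusted p = 0.255) and the calcium pump Atp2a2 -0.22 (adjusted p = 0.332). Of 23 ion channel and gap junction genes Scn4b rose and 18 were negative (median -0.12, and between -0.19 and -0.08 with single libraries left out). Gja1, connexin 43 of the gap junctions, was at 283, 294 and 294 CPM on the Western diet, against 420, 369 and 386 CPM on the control diet (log2 -0.43 ± 0.11 SE, adjusted p = 0.246). The pacemaker channel gene Hcn2 had a log2 fold change of -0.42 (adjusted p = 0.314).

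The fetal and hypertrophic program, which a stressed adult heart switches back on, had no gene past the test. Of 19 genes 0 passed, 14 were negative and 4 had an unadjusted p under 0.05, all lower (4.95% of all genes), with a median of -0.13. The median was -0.07 without control replicate 1, with 9 of 19 at an unadjusted p under 0.05 (13.5% of all genes in that fit). It was -0.05 without Western diet replicate 2 and -0.01 without both replicates 1, so the size of the median depended on which libraries were kept. Nppa, atrial natriuretic peptide, was at 33.0, 28.5 and 54.3 CPM on the Western diet, against 86.3, 78.1 and 61.6 CPM on the control diet (log2 -0.96 ± 0.20 SE, adjusted p = 0.142). Every Western diet library lay under every control library for Nppa. Nppb overlapped between the groups, at 85.1, 67.6 and 128 CPM on the Western diet, against 147, 101 and 72.1 CPM on the control diet (log2 -0.19, adjusted p = 0.937). Myh7, the slow myosin heavy chain, had a log2 fold change of -0.12, and skeletal α-actin, Acta1, ranged from 74.5 to 239 CPM on the Western diet, against 73.5 to 142 CPM on the control diet.

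Interferon-stimulated genes also stood on the higher side, with some libraries further out than others. These genes are switched on by interferons and act against viruses. None of the 32 tested passed, yet all 32 were positive (49.9% of all genes), 25 had an unadjusted p under 0.05, all higher (4.63% of all genes), and the median log2 fold change was 0.53. Ifi204, an intracellular DNA sensor of the interferon-inducible p200 family, had the lowest p, at 7.47, 6.82 and 7.08 CPM on the Western diet, against 5.39, 3.74 and 4.08 CPM on the control diet (log2 0.68 ± 0.14 SE, adjusted p = 0.142). Ifi44 had a log2 fold change of 0.88, the antiviral enzyme genes Oas2 and Rsad2 of 0.60 and 0.70, and Xaf1 of 0.51. Isg15, a ubiquitin-like modifier, was at 6.83, 5.30 and 6.02 CPM on the Western diet, against 4.999, 4.24 and 3.86 CPM on the control diet (log2 0.46, adjusted p = 0.572).

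Antigen presentation genes, which load peptides on MHC molecules, had a median log2 fold change of 0.64. None of 16 passed, all 16 were positive and 9 had an unadjusted p under 0.05, all higher (4.63% of all genes). B2m, the light chain of MHC class I, was at 448, 287 and 252 CPM on the Western diet, against 267, 181 and 160 CPM on the control diet (log2 0.70 ± 0.21 SE, adjusted p = 0.314). H2-Eb1, an MHC class II chain, was at 84.9, 42.7 and 26.7 CPM on the Western diet, against 40.8, 22.7 and 12.8 CPM on the control diet (log2 1.00 ± 0.39 SE, adjusted p = 0.444). The groups overlapped at all 16 genes, since control replicate 1 was above the lowest Western diet library in each.

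Single libraries stood out in both patterns. Western diet replicate 1 was the highest of the 6 libraries at 28 of 32 interferon-stimulated and 16 of 16 antigen presentation genes, and control replicate 1 was above both other controls at 30 of 32 and 16 of 16. The antigen presentation average was 0.934, 0.161 and -0.271 in the Western diet libraries, against 0.210, -0.365 and -0.670 in the controls, centred as above. The interferon average was 0.530, 0.095 and 0.148 in the Western diet libraries, against 0.032, -0.332 and -0.473 in the controls, so there the groups did not overlap. Without Western diet replicate 1 the interferon median was 0.35, with 9 of 32 genes at an unadjusted p under 0.05, and the antigen median was 0.21, with 1 of 16 (7.54% of all genes in that fit). Without control replicate 1 the medians were 0.74, with 31 of 32, and 0.93, with 14 of 16 (13.5% of all genes). Without both they were 0.55, with 22 of 32, and 0.50, with 11 of 16 (10.1% of all genes). Macrophage and monocyte markers, which express MHC class II, were positive in 15 of 18 (median 0.13), their summed level was 402 to 482 CPM on the Western diet, against 393 to 456 CPM on the control diet, and their part in these differences was not tested.

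**Figure D3:**
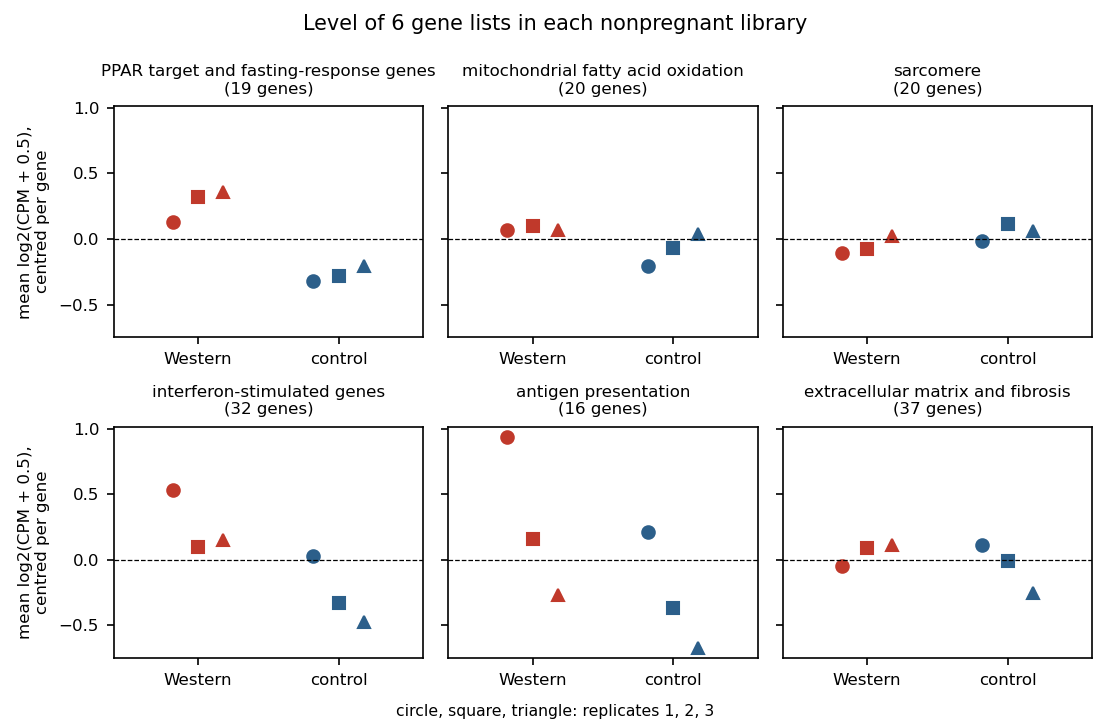
Average level of 6 gene lists in each nonpregnant library, as the mean over genes of log2(CPM + 0.5) after subtracting each gene's mean over the 6 libraries; symbols are replicates 1 to 3 of the Western diet (left) and control diet (right). For PPAR targets all Western diet libraries (0.132 to 0.362) lie above all controls (-0.323 to -0.203), whereas for antigen presentation replicate 1 is the highest library of its diet in each group.

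Acute cytokine genes lacked a common direction: of 25 tested 0 passed, 12 were positive and 13 negative (median -0.02). At an unadjusted p under 0.05, 2 were higher and 1 lower (4.63% and 4.95% of all genes). Sele, the endothelial adhesion molecule E-selectin, was at 0.859, 0.833 and 0.845 CPM on the Western diet, against 1.75, 2.10 and 1.27 CPM on the control diet (log2 -1.01, adjusted p = 0.282). The chemokine Ccl2 had a log2 fold change of -0.48, and the interleukin 1 receptor gene Il1r1 of 0.30 (adjusted p = 0.377). Of 37 matrix and fibrosis genes 0 passed, 26 were positive and 5 had an unadjusted p under 0.05, all higher (4.63% of all genes), with a median of 0.12. These values changed with the control library left out. Without control replicate 1 the median was 0.21, with 14 of 37 (13.5% of all genes in that fit). Without both replicates 1 it was 0.24, with 17 of 37 (10.1% of all genes), and without control replicate 3 it was 0.05. Serpinh1, the collagen chaperone, was at 223, 208 and 211 CPM on the Western diet, against 192, 183 and 185 CPM on the control diet (log2 0.20, adjusted p = 0.362). The fibrillar collagens Col1a1 and Col3a1 had log2 fold changes of 0.21 and 0.43 (adjusted p = 0.725 and 0.625), and periostin, Postn, 0.13. In Col3a1 the controls spanned 76.2 to 163 CPM and enclosed all but 1 of the Western diet libraries.

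Of the stress and timing lists, the unfolded protein and integrated stress response leaned to the higher side. Of its 24 genes 0 passed, 20 were positive and 6 had an unadjusted p under 0.05, all higher (4.63% of all genes), with a median of 0.10. The 6 were Mthfd2, Asns, Phgdh, Atf4, Atf5 and Trib3, with adjusted p from 0.0847 to 0.484. Asns, asparagine synthetase, was at 3.87, 4.32 and 3.45 CPM on the Western diet, against 2.5, 2.27 and 2.27 CPM on the control diet (log2 0.72 ± 0.17 SE, adjusted p = 0.185), and Phgdh, which opens serine synthesis, had a log2 fold change of 0.74. Of 25 immediate early genes 21 were negative (median -0.22, and -0.11 without control replicate 1); Fosl2 had a log2 fold change of -0.34 and the phosphatase gene Dusp1 -0.44. Of 20 clock genes 16 were negative (median -0.10), with Cry2 at -0.29. Of 20 glucocorticoid and FOXO response genes 2 were higher at an unadjusted p under 0.05 (4.63% of all genes), Sesn1 and Zbtb16 (log2 0.23 and 0.69). Heat shock and antioxidant genes had 0 of 17 and 0 of 24 at an unadjusted p under 0.05 (9.58% of all genes), and the 20 hypoxia and vascular growth genes had 1 in each direction. Cell cycle genes were positive in 27 of 32 (median 0.31), with 2 higher and 1 lower at an unadjusted p under 0.05 (4.63% and 4.95% of all genes). The median was 0.88 without control replicate 1, with 19 of 32 at an unadjusted p under 0.05 (13.5% of all genes in that fit). It was 0.13 without control replicate 3. Birc5 and Plk1 had log2 fold changes of 1.12 and 0.98 (adjusted p = 0.424 and 0.444), and the kinetochore protein gene Cenpf of -0.65 (adjusted p = 0.204).

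Markers of the heart's cell types leaned the same way as some of these groups. The lists share genes, among them Myh6, Ttn, Ryr2, Atp2a2, Col1a1 and Col3a1, so part of this likeness is built in. All 12 ventricular myocyte markers together summed to between 100004 and 104574 CPM on the Western diet, against 105317 to 119046 CPM on the control diet, and 11 of 12 were negative (median -0.10), beside the contractile genes above. Endothelial markers summed to between 2335 and 2537 CPM on the Western diet, against 2158 to 2207 CPM on the control diet. Of these 13 of 14 were positive (median 0.14), beside Ramp2 and Gpihbp1, with Pecam1 at log2 0.21 and Cldn5 at 0.44, while von Willebrand factor, Vwf, was at -0.46. Fibroblast markers were positive in 12 of 13 (median 0.20), beside the matrix genes. Lymphocyte markers reached 12.4 to 15.2 CPM in sum on the Western diet, against 9.08 to 13.7 CPM on the control diet (median log2 fold change 0.27, and 0.07 without control replicate 3), and thymocyte markers no more than 2.54 CPM in any library. Schwann cell and neuron markers were positive in 8 of 10 (median 0.36) and summed to between 29.3 and 34.9 CPM on the Western diet, against 26.2 to 28.6 CPM on the control diet. Of 8 atrial markers tested, Nppa among them, 5 were negative (median -0.09), with a list average of -0.052, -0.061 and -0.080 in the Western diet libraries, against -0.025, 0.139 and 0.080 in the controls, so all Western diet libraries were under all controls. Erythroid markers were negative in 8 of 9 (median -0.24, and -0.02 without control replicate 1). No cell type list held a gene past the test, including those of smooth muscle, neutrophils, brown adipocytes, mesothelium, skeletal muscle and valves. The part of cell type proportions in the gene differences was not tested.

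The same diet contrast in hearts taken 1 day after delivery, which shares no library with the nonpregnant one, called 136 of 15476 genes (0.879%), 100 higher (0.646%) and 36 lower (0.233%). Of the 9 genes called in nonpregnant hearts, 7 were also called after delivery in the same direction, which is 77.8% of the nonpregnant and 5.15% of the postpartum calls, and all 9 had the same sign. Scn4b had a log2 fold change of 0.86 in nonpregnant and 0.78 in postpartum hearts, Adh1 0.82 and 0.73, Lims2 0.41 and 0.39, and Ndrg4 -0.56 and -0.56. The 2 genes called in nonpregnant hearts alone were Aldh1a1, with 0.61 in nonpregnant and 0.27 in postpartum hearts (adjusted p = 0.201), and Ramp2, with 0.41 and 0.25 (adjusted p = 0.0870). The difference between states did not pass for either (adjusted p = 0.475 and 0.627). Because the 2 contrasts share each gene's spread estimate, the postpartum libraries were also fitted alone; there 6 of the 9 passed, and Abat (adjusted p = 0.103), Ramp2 (0.125) and Aldh1a1 (0.298) did not.

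Read the other way, 120 of the 136 postpartum calls had the same sign in nonpregnant hearts, and 65 had an unadjusted p under 0.05 there with that sign. Their differences were smaller outside pregnancy: the 100 genes called higher had a median log2 fold change of 0.23 in nonpregnant and 0.61 in postpartum hearts, and the 36 called lower -0.15 and -0.57. The postpartum values chose these genes, so their larger size there is a description. The PPAR list had a median of 0.35 in nonpregnant and 0.60 in postpartum hearts, and 10 of its 19 genes in nonpregnant and 17 in postpartum hearts were higher at an unadjusted p under 0.05 (7.83% of all genes in postpartum hearts). Mitochondrial β-oxidation had medians of 0.16 and 0.36. Acot1 had a log2 fold change of 1.04 in nonpregnant and 2.33 in postpartum hearts, and Pdk4 of 1.20 and 2.35.

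For other lists the medians of the 2 states lay apart. Interferon-stimulated genes had a median of 0.53 in nonpregnant and -0.03 in postpartum hearts, and antigen presentation of 0.64 and -0.01, so both were near 0 after delivery, with 12 of 32 and 6 of 16 genes positive there. Matrix and fibrosis had medians of 0.12 in nonpregnant and -0.31 in postpartum hearts, and cell cycle of 0.31 and -0.37. Of the 37 matrix genes, 0 in nonpregnant and 21 in postpartum hearts were lower at an unadjusted p under 0.05 (6.77% of all genes in postpartum hearts). Cell type markers also differed between the states: fibroblast markers had medians of 0.20 in nonpregnant and -0.22 in postpartum hearts, and white adipocyte markers of 0.32 and -4.21. The last value is the middle of a divided list, as 4 of the 10 white adipocyte markers were positive and 6 negative in postpartum hearts. All of these had an unadjusted p under 0.05 there, 6 lower (6.77% of all genes) and 4 higher (7.83%). After adjustment 1 passed, on the higher side, and 0 passed on the lower side. The part of these markers was not tested. In the test of the difference, nonpregnant minus postpartum diet effect, all 32 interferon-stimulated genes had a positive difference (49.8% of all genes). Of them 12, and of the 37 matrix genes 15, had an unadjusted p under 0.05 in the higher direction (3.86% of all genes), and 3 of the 19 PPAR genes did in the lower direction (5.12% of all genes). No gene passed this test after adjustment in edgeR: 0 of 15476 (0%), the smallest adjusted p was 0.0987, and 1390 had an unadjusted p under 0.05 (8.98%), while DESeq2 called 43. Serpinh1 had the smallest p among genes with a positive difference, with a log2 fold change of 0.20 in nonpregnant and -0.36 in postpartum hearts (difference 0.56, adjusted p = 0.234), followed by Col16a1 (difference 0.83), Smtn (0.46), Tmc6 (0.46) and H2afz (0.40). On the negative side were Rreb1 (-0.54), Myh14 (-0.66), Dusp18 (-1.15), Cdk18 (-0.56) and Ism1 (-1.56).

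**Figure D4:**
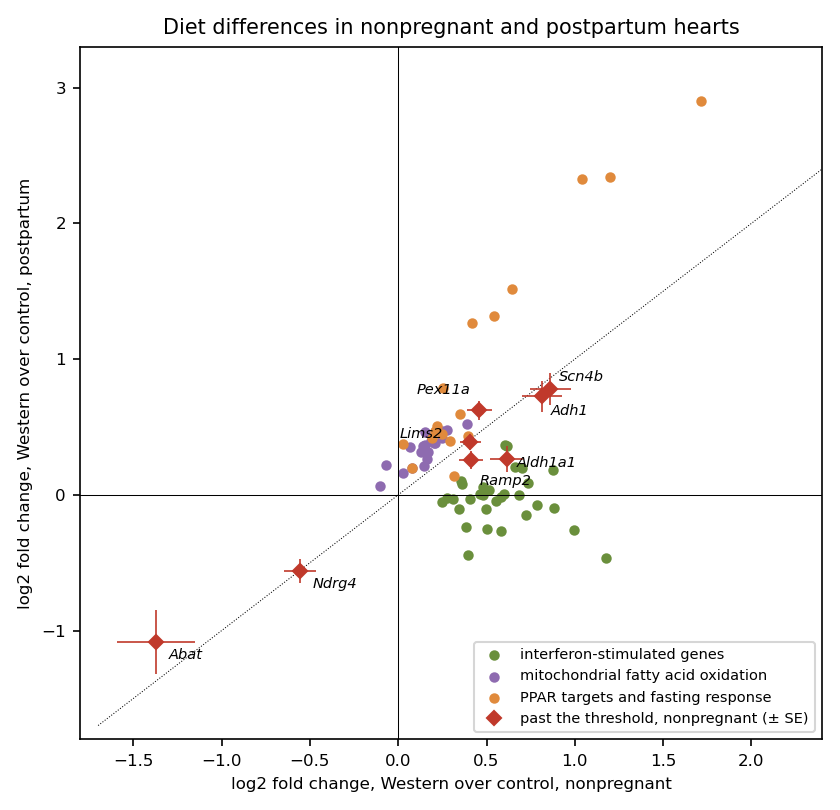
Log2 fold change of Western over control diet in nonpregnant (horizontal) and postpartum hearts (vertical) for 8 genes past the threshold in nonpregnant hearts (diamonds, ± SE) and 3 gene lists; the dotted line marks equal values. PPAR targets lie on the positive side on both axes, and interferon-stimulated genes are positive on the horizontal axis and spread around 0 on the vertical axis.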

How the data were processed

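Heart RNA was measured in 12 libraries, 3 in each of 4 groups. The authors deposited raw read counts per gene, 1 file per library; the submitters' processing notes list STAR 2.5.2b, FastQC, featureCounts (Subread 1.5.2) and the mouse build GRCm38. Neither the labels nor the notes state the strand setting or annotation release. Symbols were attached by Ensembl ID, and 345 of 49315 IDs had none. Genes were kept with filterByExpr (at least 10 counts in enough libraries and 15 in all), scaled by TMM, and fitted with edgeR 4.0.16 (R 4.3.3) over all 12 libraries with a mean per group; quasi-likelihood tests were two-sided and adjusted by Benjamini-Hochberg over all 15476 genes. CPM values are TMM-scaled. The common biological coefficient of variation was 9.62%. Scripts were tested on simulated data.

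The groups compared, gene lists and tests were chosen with earlier results of these data known. Genes were named by rule: those past the threshold, filled to 10 in each direction by p (genes averaging at least 1 CPM in either diet group and with a gene name), up to 4 genes of smallest p per list, genes followed in the study's field, and 5 genes per direction for the difference between states. Acot2, Vldlr, Gpihbp1, Plin1, Rsad2, Isg15, Atf4 and Cldn5 are given outside this rule, with their values known. The genes under Other observations were also chosen after their values were seen. Alternatives were another scaling, other filters, DESeq2 1.42.0, limma-voom (limma 3.58.1), robust estimation, fits of 6 libraries alone, removal of mitochondrially encoded genes and each library left out. Of the 9 genes past the threshold 1, with some list members, is not reported here. Ctgf was not found under that symbol, and Lep and Il6 did not pass the filter.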

Additional observations from a re-analysis of the deposited data

How the results depend on the processing

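The number of genes past the threshold in nonpregnant hearts, 9 by edgeR, was 9 with DESeq2 size factors or without mitochondrially encoded genes, 7 with the robust option and 6 with limma-voom. It was 5 with a filter of 1 CPM in 3 libraries, 95 with DESeq2, and 454 with no filter, where 443 of the genes also pass the filter and the prior degrees of freedom of the spread became infinite, against 5.74. It was 0 in a fit of the 6 nonpregnant libraries alone and 0 without both nonpregnant replicates 1, a setting chosen after seeing the data. Leaving out single libraries gave 0 to 18 genes: 0 without Western nonpregnant replicate 2, control nonpregnant replicate 2, control nonpregnant replicate 3 or control postpartum replicate 1 (1158, 1039, 1289 and 1461 genes at an unadjusted p under 0.05), 1 without Western nonpregnant replicate 3, 4 and 3 without the nonpregnant replicates 1 of Western and control diet, and 18 without Western postpartum replicate 2; the cause was not tested. The postpartum count, 136, was 1048 with no filter, 456 with DESeq2, 316 without both nonpregnant replicates 1, 71 in a fit of the postpartum libraries alone, a setting also chosen after seeing the data, and 30 to 490 with single libraries left out. The count for the difference, 0, was 506 with no filter, 1 with the robust option, 43 with DESeq2, and 0 to 53 with single libraries left out. The mitochondrial share differed by 0.758 to 1.14 percentage points with single libraries left out.

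All 9 genes kept their sign under all 20 of these settings other than those chosen after seeing the data. Scn4b, Adh1, Lims2 and Pex11a passed in 13 of them, Aldh1a1 in 12, Ndrg4 in 8, and Ramp2 and Abat in 7; their highest adjusted p over these settings lay between 0.255 and 0.352. The scaling moved the median of all genes by less than 0.01 on the log2 scale. No paired analysis was possible because the replicate numbers only name libraries and the titles' own numbers are not shared between groups. With 3 libraries a group, small differences in genes near the floor of 3 counts could not be detected.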

Other observations

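Further genes with small p in nonpregnant hearts, chosen after their values were seen, did not pass the adjusted threshold. They are a selection from the genes of smallest p, and their direction was fixed by that choice. On the higher side were Aqp7, a glycerol channel (log2 0.63 in nonpregnant and 0.63 in postpartum hearts, adjusted p = 0.166 in nonpregnant hearts), Fbp2, the muscle fructose bisphosphatase (0.69 and 1.04, adjusted p = 0.144), Xdh, xanthine dehydrogenase (0.53 and 0.67, adjusted p = 0.178), Acsf2, an acyl-CoA synthetase (0.40 and 0.78, adjusted p = 0.185), and C1qtnf9, a secreted C1q family protein of heart and fat (0.42 and 0.33, adjusted p = 0.166). On the lower side, with the values in the same order, were Myocd, the myocardin coactivator of smooth and heart muscle genes (-0.45 and -0.23, adjusted p = 0.142), Dsc2, a desmosomal cadherin (-0.31 and -0.09, adjusted p = 0.166), Phkg1, a catalytic subunit of phosphorylase kinase (-0.51 and 0.13, adjusted p = 0.142), Plekha7 (-0.93 and -0.32, adjusted p = 0.142) and Adgrb2 (-0.89 and -0.84, adjusted p = 0.142). Phkg1 thus had the opposite sign in postpartum hearts.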
